A study of Mus musculus with 7 samples.

Results

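A set of 9 marker genes widely used for macrophages was followed through endometrial epithelial RNA of hormone-treated mice: Mpeg1, Csf1r, Cd68, Lyz2, C1qa, C1qb, C1qc, Itgam and Aif1. They were chosen by name, and all 9 were found among the 24353 genes of the table, which writes symbols in capitals (MPEG1, CSF1R, ITGAM). Each reached 1 FPKM (fragments scaled to transcript length and to the library's total) in at least 1 library and was therefore tested. Mpeg1 and Csf1r did so only in the estradiol libraries, so these had to differ somewhere. The mice were C57BL/6 females whose ovaries had been removed at 6 to 7 weeks of age, and every treatment lasted 28 days. The libraries comprised 2 from mice given tamoxifen at 0.5 mg per day with alpelisib at 30 mg/kg per day, 2 from mice given the same tamoxifen alone, 2 from mice carrying an estradiol pellet of 0.01 mg, and 1 from vehicle. Tamoxifen was injected under the skin in peanut oil and alpelisib, an inhibitor of the alpha isoform of phosphoinositide 3-kinase, was given by mouth. Of the mice, 18 were randomized, 6 per arm, to the vehicle and both tamoxifen arms, and 2 received estradiol. The sources used here do not say whether the vehicle library is of a single mouse or pooled mice, and its values carry no replicate error. The horns of the uterus were collected and the samples are labelled epithelial, but the labels used here do not say how the epithelium was separated.

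Macrophages are phagocytes that reside in most tissues, including the lining of the uterus, where they take up dying cells and present antigen. Their survival depends on the receptor encoded by Csf1r, which binds the growth factors CSF1 and IL-34. C1qa, C1qb and C1qc encode the 3 chains of C1q, the recognition molecule of the classical complement pathway, made largely by macrophages. Mpeg1 encodes perforin-2, a pore-forming protein of phagocytes, and Lyz2 encodes a lysozyme of myeloid cells. Cd68 encodes a glycoprotein of the lysosome membrane, and Aif1 encodes the calcium-binding protein IBA1. Itgam encodes CD11b, the alpha chain of the integrin complement receptor 3, which reaches the surface paired with the beta chain encoded by Itgb2.

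The genes did not behave as a single group. Mpeg1, Csf1r and the C1q genes were highest in both estradiol libraries, though C1qb only narrowly in estradiol replicate 2. Itgam was highest under tamoxifen and nearly absent in vehicle. Cd68 was present in every library and highest with tamoxifen, Lyz2 was low with tamoxifen, and Aif1 passed no test.

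**Figure D1:**
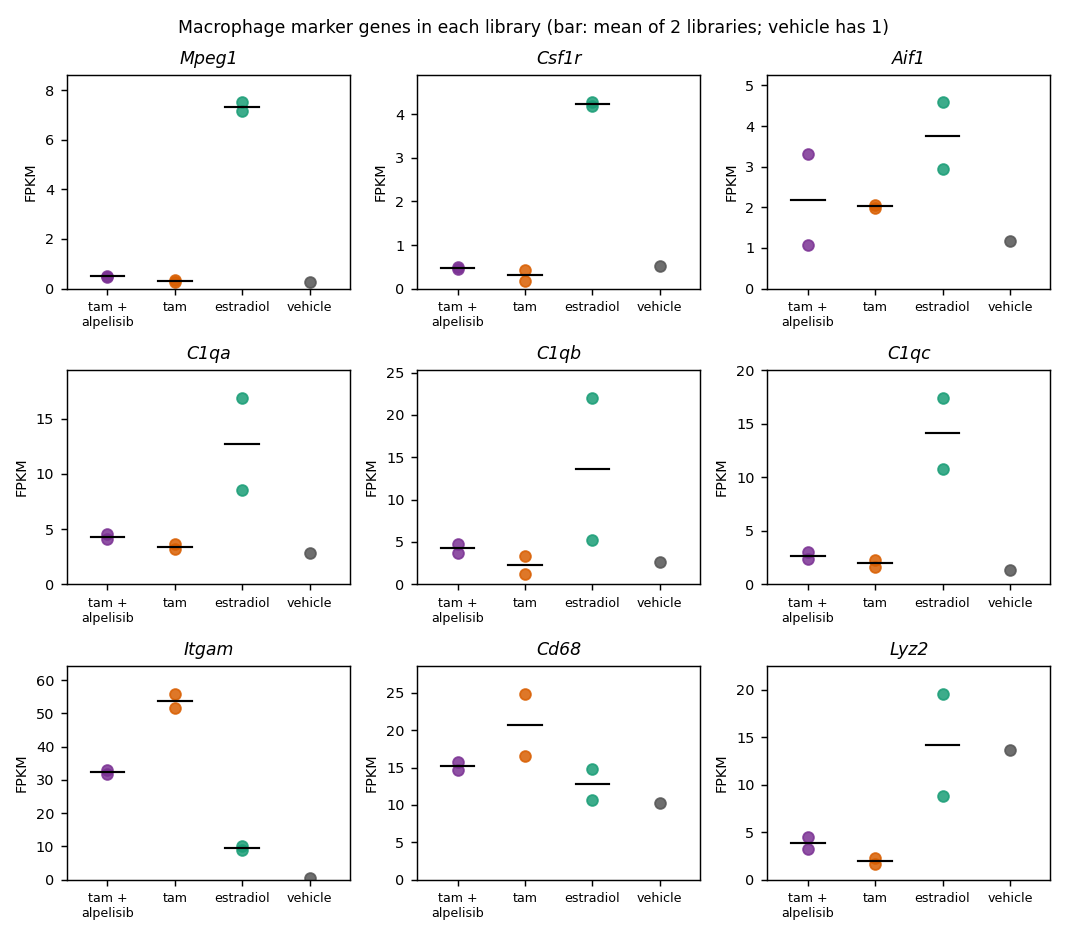
FPKM of each of the 9 genes (linear vertical axes starting at 0) in the 7 libraries, grouped as tamoxifen plus alpelisib, tamoxifen, estradiol and vehicle from left to right. Points are libraries and the black bars are means of 2 libraries. Mpeg1 stood at 7.5 and 7.15 FPKM with estradiol and at or below 0.506 elsewhere, whereas Itgam peaked at 51.5 and 56.0 FPKM with tamoxifen.

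The libraries carried epithelial transcripts: Epcam stood between 202 and 289 FPKM and Krt8 between 769 and 2290 FPKM in all 7. Markers of other cells were present too, and Ptprc, the CD45 gene of all leukocytes, lay between 0.0525 and 0.94 FPKM, below the filter, and was not tested. In bulk RNA of this kind, fewer cells of a type and less RNA per cell cannot be told apart. Depth, read from the FPKM step of a single fragment, was near 15.6 to 18.1 M fragments in 6 libraries. Estradiol replicate 2 showed no such step (25 genes at the lowest level, against 145 to 196), so its depth could not be read. It also listed 9801 genes at 0, against 8032 to 9087 in the others.

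Estradiol against vehicle asks what the full hormone does to the ovary-deprived endometrium. Of the 9 genes, 5 rose and 0 fell, against 22.7% of all 12314 tested genes that rose and 12.8% that fell, or 35.5% in all (limma, Benjamini-Hochberg adjusted p below 0.05). The median log2 fold change of the 9 was 1.77, beside 0.12 for all tested genes. The genes that rose were Mpeg1, Csf1r, C1qa, C1qc and Itgam. Mpeg1 and Csf1r passed the filter only through estradiol, which favours a rise here, so the count is a description. Without a filter, 5 rose and 0 fell as well.

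Mpeg1 was measured at 0.506 and 0.474 FPKM with tamoxifen plus alpelisib, 0.283 and 0.347 FPKM with tamoxifen, 7.5 and 7.15 FPKM with estradiol, and 0.26 FPKM in vehicle. Both estradiol libraries were far above the other 5, which lay between 0.26 and 0.506 FPKM. The mean with estradiol was 7.33 ± 0.251 FPKM (SD, n = 2), 28.2 times the vehicle value. On the log2(FPKM + 1) scale, which understates changes of low genes, Mpeg1 rose by 2.72 ± 0.15 with estradiol against vehicle (SE; limma adjusted p = 0.000421). In fragments, these levels come to roughly 529 in estradiol replicate 1 and 20 in vehicle, estimated from the single annotated transcript. Against estradiol, Mpeg1 was lower by -2.66 ± 0.12 with tamoxifen (limma adjusted p = 6.82e-05) and by -2.48 ± 0.12 with tamoxifen plus alpelisib (limma adjusted p = 8.25e-05). Mpeg1 passed the filter only through estradiol, which favours a higher value there. Its differences from estradiol, each also called with no filter, are therefore descriptions. Neither tamoxifen arm differed detectably from vehicle (limma adjusted p = 0.771 for tamoxifen and 0.252 with alpelisib added).

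Csf1r had the same shape at a lower level, with 0.485 and 0.443 FPKM with tamoxifen plus alpelisib, 0.429 and 0.181 FPKM with tamoxifen, 4.27 and 4.19 FPKM with estradiol, and 0.523 FPKM in vehicle. The estradiol pair again lay above all other libraries and agreed closely. Csf1r rose by 1.78 ± 0.17 on the log2 scale with estradiol against vehicle (limma adjusted p = 0.00122), a linear ratio of 8.09. With tamoxifen it was lower than with estradiol by -2.01 ± 0.14 (limma adjusted p = 0.000265), and with tamoxifen plus alpelisib by -1.84 ± 0.14 (limma adjusted p = 0.000277). Csf1r too passed the filter only through estradiol, so its differences from estradiol, each also called with no filter, are descriptions. Csf1, which encodes the main ligand of this receptor, followed it. Csf1 measured 1.07 and 1.38 FPKM with tamoxifen plus alpelisib, 0.461 and 0.67 FPKM with tamoxifen, 5.78 and 5.06 FPKM with estradiol, and 1.32 FPKM in vehicle. It rose by 1.47 ± 0.18 with estradiol against vehicle (limma adjusted p = 0.00263) and was lower with tamoxifen than with estradiol by -2.04 ± 0.15 (limma adjusted p = 0.000282). The other ligand gene, Il34, never exceeded 0.863 FPKM and was not tested.

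The C1q genes, which lie next to each other on chromosome 4, shared the estradiol pattern but varied more between replicates. C1qa had 4.08 and 4.56 FPKM with tamoxifen plus alpelisib, 3.16 and 3.63 FPKM with tamoxifen, 16.9 and 8.52 FPKM with estradiol, and 2.82 FPKM in vehicle. C1qb had 4.75 and 3.71 FPKM with tamoxifen plus alpelisib, 1.16 and 3.31 FPKM with tamoxifen, 22 and 5.21 FPKM with estradiol, and 2.66 FPKM in vehicle. C1qc had 3.01 and 2.33 FPKM with tamoxifen plus alpelisib, 2.29 and 1.6 FPKM with tamoxifen, 17.4 and 10.8 FPKM with estradiol, and 1.31 FPKM in vehicle. For each chain, both estradiol libraries were above the other 5, and estradiol replicate 1 was above replicate 2. Against vehicle, C1qc rose by 2.67 ± 0.30 on the log2 scale (limma adjusted p = 0.00201), a linear ratio of 10.8. C1qa rose by 1.77 ± 0.35 (limma adjusted p = 0.0118), a linear ratio of 4.5. C1qb differed by 1.71 ± 0.76, which missed the threshold (limma adjusted p = 0.127). The C1qb difference depended on the estradiol library kept: it was 2.65 without estradiol replicate 2, and its lowest value over the alternatives was 0.76.

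The estradiol pattern, in which both estradiol libraries exceed the other 5, held for 5 of the 9 genes (Mpeg1, Csf1r, C1qa, C1qb and C1qc) and for 30.1% of all tested genes. Since Mpeg1 and Csf1r passed the filter only through estradiol, this count is a description too. C1qb met the pattern narrowly, with 5.21 FPKM in estradiol replicate 2 against 4.75 FPKM in tamoxifen plus alpelisib replicate 1.

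Promoter sequences of Mpeg1 and C1qc, which moved together with estradiol, are printed with those of Itgam, which moved differently. They are the 250 bases before the annotated start in RefSeq (GRCm38.p6, 5′ to 3′ on the gene's strand), from chr19:12460520-12460769 (plus strand) for Mpeg1, chr4:136892915-136893164 (minus strand) for C1qc and chr7:128062390-128062639 (plus strand) for Itgam. Capitals mark the hexamer GAGGAA, the core bound by the myeloid factor PU.1, and GGTCA, the estrogen receptor half-site, each on either strand.
Mpeg1: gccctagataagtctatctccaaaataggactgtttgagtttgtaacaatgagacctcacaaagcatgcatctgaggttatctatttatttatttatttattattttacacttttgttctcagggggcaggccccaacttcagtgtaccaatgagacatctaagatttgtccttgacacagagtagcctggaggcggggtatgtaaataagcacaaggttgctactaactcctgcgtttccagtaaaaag
C1qc: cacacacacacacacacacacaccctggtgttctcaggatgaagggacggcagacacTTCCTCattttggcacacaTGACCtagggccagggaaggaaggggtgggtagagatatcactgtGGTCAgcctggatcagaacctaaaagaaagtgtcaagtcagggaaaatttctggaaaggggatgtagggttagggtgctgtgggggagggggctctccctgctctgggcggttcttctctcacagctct
Itgam: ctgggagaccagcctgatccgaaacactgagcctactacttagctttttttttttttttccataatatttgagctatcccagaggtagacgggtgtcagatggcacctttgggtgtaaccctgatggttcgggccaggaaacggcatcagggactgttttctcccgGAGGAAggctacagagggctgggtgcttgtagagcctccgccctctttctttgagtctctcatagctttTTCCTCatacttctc
The Itgam window holds 2 PU.1 cores and 0 half-sites, the C1qc window 1 core and 2 half-sites, and the Mpeg1 window 0 of either. Across 32851 promoter windows of this length, 23.3% hold the PU.1 core and 35.2% the half-site, so such matches are common. The full estrogen response element, GGTCA followed after 3 bases by TGACC, was in 0.0639% of windows and in 0 of the 7 windows found for the 9 genes. These are matches of letters only.

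Other macrophage genes were taken from a list of 33. In 20 of the 33, tested or not, both estradiol libraries were above the other 5, as for Mpeg1 and not for Itgam. Among all tested genes this share was 30.1%. The 20 that passed the filter are not the same set. Of these, 15 rose with estradiol against vehicle and 0 fell, beside 22.7% and 12.8% of all tested genes. Their median log2 fold change was 1.27 beside 0.12 for all genes. Mpeg1 and Itgam both rose there, so this count does not separate their patterns. Since 10 of the 20 passed the filter only through estradiol, the count without a filter is given as well: 16 rose and 2 fell of 32. Adgre1, which encodes the macrophage surface protein F4/80, measured 0.449 and 0.241 FPKM with tamoxifen plus alpelisib, 0.151 and 0.183 FPKM with tamoxifen, 3.32 and 2.36 FPKM with estradiol, and 0.278 FPKM in vehicle. It rose by 1.57 ± 0.21 with estradiol against vehicle (limma adjusted p = 0.00316). Cybb, the catalytic subunit of the phagocyte oxidase, rose by 1.38 ± 0.15 (limma adjusted p = 0.00177), and Ms4a7, a membrane protein of macrophages, by 2.06 ± 0.19 (limma adjusted p = 0.00107). Fcgr3, an immunoglobulin receptor, rose by 1.5 ± 0.16 (limma adjusted p = 0.00158). Adgre1, Cybb and Ms4a7 passed the filter only through estradiol, which favours a rise here, so their rises are descriptions. The mannose receptor gene Mrc1 was at most 0.299 FPKM in any library and was not tested.

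**Figure D2:**
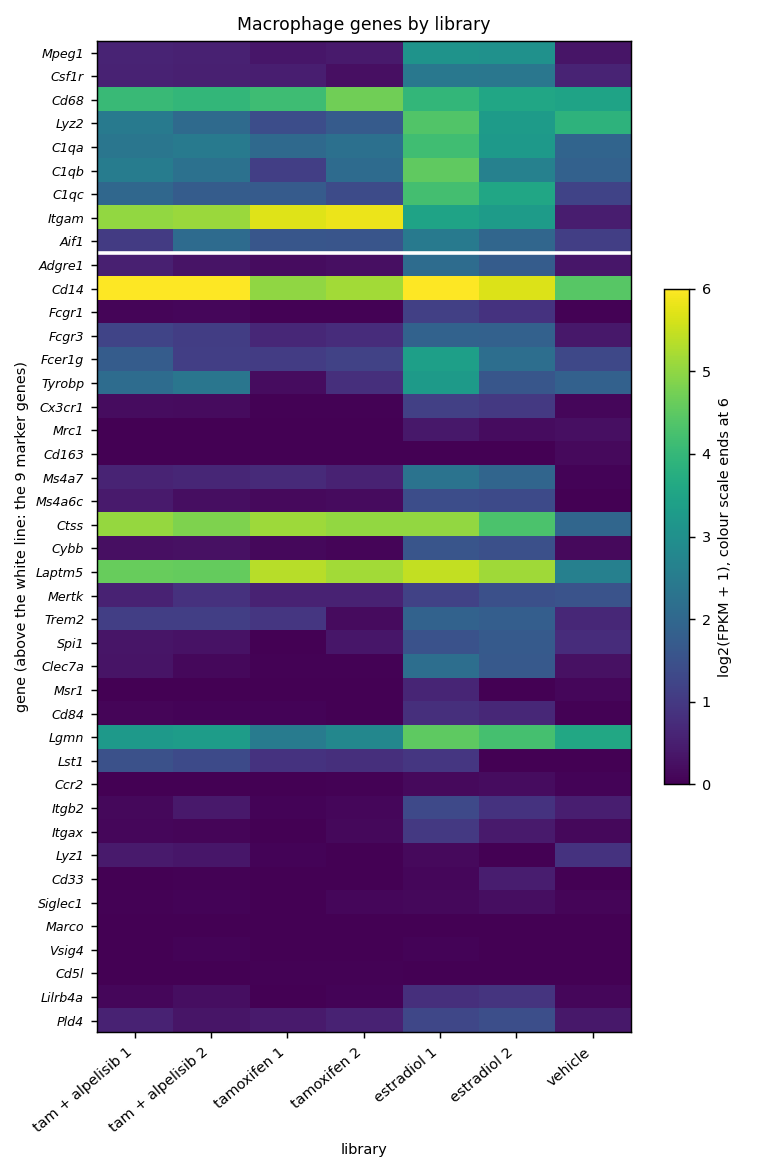
Levels of the 9 genes (above the white line) and of 33 other macrophage genes (below it) in the 7 libraries, as log2(FPKM + 1), with the colour scale ending at 6. Columns run from tamoxifen plus alpelisib through tamoxifen and estradiol to vehicle. Of the 33 other genes, tested or not, 20 have both estradiol libraries above every other library, beside 30.1% of all tested genes.

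Markers of other cells were compared beside these changes. Summed T and NK cell markers (14 genes) were 1.34 and 0.352 FPKM with tamoxifen plus alpelisib, 0.891 and 1.97 FPKM with tamoxifen, 4.58 and 2.79 FPKM with estradiol, and 3.19 FPKM in vehicle. Summed dendritic cell markers (10 genes) were at most 1.73 FPKM and summed B cell markers (8 genes) at most 2.78 FPKM in any library. These lymphoid and dendritic sums were low in every library, and for each the vehicle value lay between the estradiol libraries, with all 4 tamoxifen libraries below them. Stromal markers (12 genes) summed to 127 and 135 FPKM with tamoxifen plus alpelisib, 58.6 and 60.0 FPKM with tamoxifen, 194 and 184 FPKM with estradiol, and 276 FPKM in vehicle. Endothelial markers (10 genes) summed to 3.06 and 4.45 FPKM with tamoxifen plus alpelisib, 7.15 and 7.54 FPKM with tamoxifen, 19.7 and 14.2 FPKM with estradiol, and 26.0 FPKM in vehicle. Stromal and endothelial sums were highest in vehicle, next with estradiol and lowest in the tamoxifen arms, and their part in the macrophage changes was not tested. Smooth muscle markers (9 genes) summed to between 13.9 and 34.6 FPKM in the 6 treated libraries and to 93.7 FPKM in vehicle, and their part was not tested either. Epithelial markers (12 genes) summed to 6250 and 6780 FPKM with tamoxifen plus alpelisib and to 4290 and 5950 FPKM with tamoxifen. They were lowest with estradiol, at 3280 and 2730 FPKM, and highest in vehicle, at 7340 FPKM. The part of this difference in the macrophage changes was not tested. Resident macrophage genes, 5 of them tested, gave 0 rises and 1 fall with estradiol against vehicle, beside 22.7% and 12.8% of all tested genes. Lyve1, also a lymphatic marker, fell by 1.23 on the log2 scale (limma adjusted p = 0.00607), a call lost at a pseudocount of 0.1 (0.0708). The others passed no threshold there: Cbr2 differed by 0.96 (limma adjusted p = 0.0756), Gas6 by 0.04, Stab1 by 0.01 and Pf4 by -0.81.

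On the log2(FPKM + 1) scale Itgam gave the largest rise of the 9 genes over vehicle in each treated group; in linear ratio Mpeg1, at 28.2, exceeded Itgam, at 23.3, with estradiol. It measured 31.7 and 33.0 FPKM with tamoxifen plus alpelisib, 51.5 and 56.0 FPKM with tamoxifen, 10.1 and 8.8 FPKM with estradiol, and 0.406 FPKM in vehicle. The 4 groups did not overlap and stood in the order tamoxifen, tamoxifen plus alpelisib, estradiol, vehicle, an order that 2.11% of all tested genes also showed. Its estimated fragments, on the longest annotated transcript, were 4196 and 4160 with tamoxifen and 34 in vehicle. Against vehicle, Itgam rose by 5.28 ± 0.16 on the log2 scale with tamoxifen (limma adjusted p = 2.84e-05), a linear ratio of 132. With tamoxifen plus alpelisib it rose by 4.57 ± 0.16 (limma adjusted p = 4.65e-05), and with estradiol by 2.89 ± 0.16 (limma adjusted p = 0.000421). Against estradiol it was higher by 2.39 ± 0.13 with tamoxifen (limma adjusted p = 0.000124) and by 1.68 ± 0.13 with tamoxifen plus alpelisib (limma adjusted p = 0.000296).

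Itgb2 and Ptprc did not follow Itgam. Itgb2, the beta chain with which the Itgam product pairs, measured 0.0989 and 0.319 FPKM with tamoxifen plus alpelisib, 0.0384 and 0.0839 FPKM with tamoxifen, 1.52 and 0.848 FPKM with estradiol, and 0.426 FPKM in vehicle. Itgb2 was lowest where Itgam was highest, and fell with tamoxifen against estradiol by 1.02 on the log2 scale (limma adjusted p = 0.00606). It passed the filter only through estradiol replicate 1, which favours a lower value elsewhere, so its differences from estradiol are descriptions. With tamoxifen plus alpelisib it was also lower than with estradiol, by -0.84 (limma adjusted p = 0.0107), a call lost without tamoxifen plus alpelisib replicate 1 (0.0772). Ptprc was 0.0525 and 0.111 FPKM with tamoxifen plus alpelisib, 0.0612 and 0.0996 FPKM with tamoxifen, 0.94 and 0.793 FPKM with estradiol, and 0.234 FPKM in vehicle. The genes on either side of Itgam in RefSeq order were low as well: Trim72 reached at most 0.321 FPKM and Itgax, another integrin alpha chain, at most 0.998 FPKM in any library. Neutrophils also carry CD11b, and the summed level of 13 neutrophil markers had the group order of Itgam, at 1780 and 1750 FPKM with tamoxifen plus alpelisib, 2560 and 2550 FPKM with tamoxifen, 1530 and 1330 FPKM with estradiol, and 83.8 FPKM in vehicle. That sum was mostly Ltf, the lactoferrin gene, which the uterine epithelium also expresses under estrogen, at 1730 and 1700 FPKM with tamoxifen plus alpelisib, 2560 and 2540 FPKM with tamoxifen, 1520 and 1320 FPKM with estradiol, and 83.1 FPKM in vehicle. Ly6g, a surface protein of neutrophils, had 1.53 and 1.7 FPKM with tamoxifen plus alpelisib, 2.28 and 2.1 FPKM with tamoxifen, 4.11 and 0.545 FPKM with estradiol, and 0.144 FPKM in vehicle. S100a9, the partner of S100a8, had 40.2 and 43.2 FPKM with tamoxifen plus alpelisib, 3.0 and 6.32 FPKM with tamoxifen, 2.07 FPKM and 0 with estradiol, and 0.385 FPKM in vehicle. Ly6g thus overlapped between groups and S100a9 was highest with the combination, where Itgam was below its tamoxifen level. The receptor genes Csf3r and Cxcr2 were at most 0.424 and 0.0553 FPKM in any library. Elane, an enzyme of neutrophil granules, was at 0 in all 7 libraries. S100a8, a calcium-binding protein abundant in neutrophils, had 6.98 and 7.37 FPKM with tamoxifen plus alpelisib, 0 in both tamoxifen libraries, 2.5 and 3.58 FPKM with estradiol, and 0 in vehicle. Erythroid markers (7 genes, mostly globins) also had the group order of Itgam, summing to 292 and 312 FPKM with tamoxifen plus alpelisib, 1540 and 1120 FPKM with tamoxifen, 89.1 and 130 FPKM with estradiol, and 36.2 FPKM in vehicle. Of the 5 tested, all rose with tamoxifen against vehicle, beside 14.9% of all tested genes, with a median log2 fold change of 4.97. The part of neutrophils or blood in the Itgam values was not tested.

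**Figure D3:**
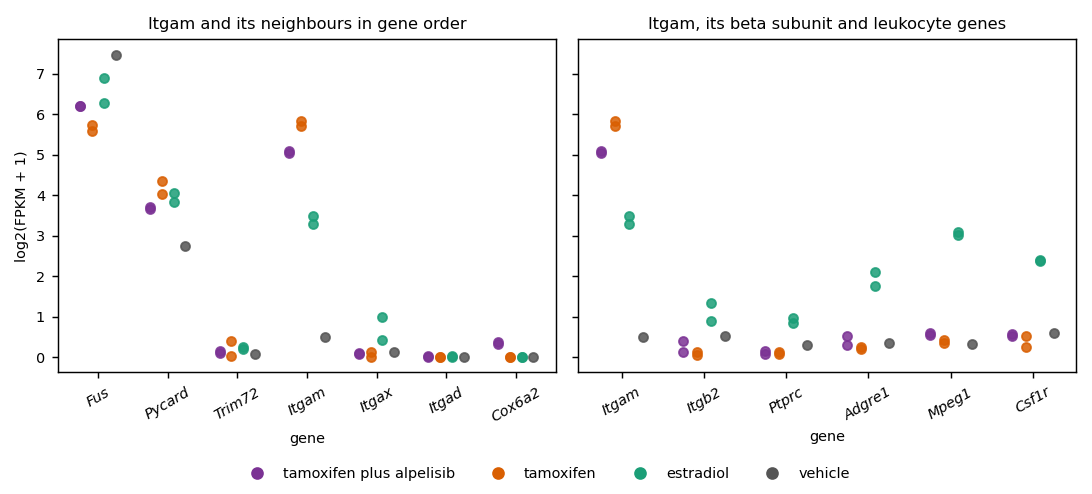
Levels of Itgam and its neighbours in gene order (left) and of Itgam beside its partner Itgb2 and leukocyte or macrophage genes (right). Points are the 7 libraries, drawn as log2(FPKM + 1). Itgam reached 51.5 and 56.0 FPKM with tamoxifen, while Itgb2 stayed at 0.0384 and 0.0839 FPKM in the same libraries.

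Tamoxifen against vehicle asks what the partial agonist does on its own. Of the 9 genes, 2 rose and 1 fell, against 14.9% and 24.1% of all tested genes (39.0% in all), and their median log2 fold change was 0.20 beside -0.12. Besides Itgam, Cd68 rose and Lyz2 fell. Lyz2 measured 4.46 and 3.23 FPKM with tamoxifen plus alpelisib, 1.66 and 2.29 FPKM with tamoxifen, 19.6 and 8.79 FPKM with estradiol, and 13.7 FPKM in vehicle. The 4 libraries with tamoxifen were all below the other 3, and the estradiol pair straddled vehicle. Lyz2 fell by 2.31 on the log2 scale with tamoxifen against vehicle (SE 0.43; limma adjusted p = 0.00774). It was lower with tamoxifen than with estradiol by -2.26 ± 0.35 (limma adjusted p = 0.00339). Its near-identical neighbour Lyz1, at most 0.842 FPKM, may share reads with it, so the split between these genes is uncertain.

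Cd68 had 15.7 and 14.7 FPKM with tamoxifen plus alpelisib, 16.6 and 24.9 FPKM with tamoxifen, 14.8 and 10.7 FPKM with estradiol, and 10.2 FPKM in vehicle. It was at 10.2 FPKM or more in all 7 libraries, including vehicle, where Mpeg1 and Csf1r were at 0.26 and 0.523 FPKM. Both tamoxifen libraries were above the other 5, as for Itgam and for 7.46% of all tested genes. The rise of 0.93 ± 0.28 with tamoxifen against vehicle (limma adjusted p = 0.0429) was lost without tamoxifen replicate 2 (0.112) and without either tamoxifen plus alpelisib library (0.0878 and 0.0866). Aif1 had 1.07 and 3.3 FPKM with tamoxifen plus alpelisib, 2.06 and 1.99 FPKM with tamoxifen, 4.58 and 2.94 FPKM with estradiol, and 1.17 FPKM in vehicle. Its groups overlapped and it passed in none of the 6 comparisons; the smallest limma adjusted p was 0.0894, for estradiol against vehicle. That difference, 1.11 ± 0.43, passed when either tamoxifen plus alpelisib library was left out (0.037 and 0.0362).

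Of the 20 other macrophage genes, 2 rose and 2 fell with tamoxifen against vehicle, beside 14.9% and 24.1% of all tested genes. The genes that rose were Laptm5, a lysosomal protein of leukocytes, by 2.64 ± 0.19 (limma adjusted p = 0.000275), and Ctss, a lysosomal protease, by 3.10 ± 0.30 (limma adjusted p = 0.000692). Mertk and Lgmn fell, at -0.96 and -0.97 (limma adjusted p = 0.0108 for each). Ctss lay between 18.8 and 33.9 FPKM and Laptm5 between 23.1 and 42.9 FPKM in the 6 treated libraries, against 2.95 and 5.14 FPKM in vehicle, so both were high in every treated group. Of 8 tested CSF1 receptor ligands and macrophage attractants, 0 rose and 3 fell with tamoxifen against vehicle, beside 24.1% of all tested genes that fell. Csf1 was among the 3, at -0.57 (limma adjusted p = 0.0496), a call lost in 8 of 11 alternatives, among them without any 1 of the 4 libraries with tamoxifen (adjusted p up to 0.154 over the alternatives). Ccl2, a chemokine that draws monocytes, was 3.78 and 6.1 FPKM with tamoxifen plus alpelisib, 0.799 and 0.613 FPKM with tamoxifen, 0.0935 and 0.0946 FPKM with estradiol, and 15.9 FPKM in vehicle. Ccl2 fell by 3.31 on the log2 scale with tamoxifen against vehicle (limma adjusted p = 0.000305) and by 3.95 with estradiol against vehicle (limma adjusted p = 0.000465).

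Among the proteases that C1q activates, C1ra fell by 1.59 with tamoxifen against vehicle (limma adjusted p = 0.00348) and C1s1 by 1.83 (limma adjusted p = 0.00175). C1ra was 1.23 and 1.33 FPKM with tamoxifen, 4.06 and 4.14 FPKM with estradiol, and 5.87 FPKM in vehicle. With estradiol against vehicle, C1ra differed by -0.43 (limma adjusted p = 0.203). C1s1 fell by 0.84 there (limma adjusted p = 0.0309), a call lost without estradiol replicate 2 or either tamoxifen plus alpelisib library (adjusted p up to 0.0966 over the alternatives). Of 12 tested complement partners and regulators, 5 rose and 4 fell with tamoxifen against vehicle, beside 14.9% and 24.1% of all tested genes. C3, the central complement protein, was among those that rose, by 4.80 ± 0.36 (limma adjusted p = 0.000304).

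Tamoxifen against estradiol sets the partial agonist beside the full hormone. Of the 9 genes, 1 was higher and 6 were lower with tamoxifen, against 12.3% and 36.2% of all tested genes (48.5% in all), and the median log2 difference was -1.97 beside -0.26. Mpeg1 and Csf1r passed the filter only through estradiol, so this count is a description. Without a filter 1 was higher and 5 were lower. The higher gene was Itgam; Cd68, at 0.65 ± 0.23 (limma adjusted p = 0.057), passed when FPKM were rescaled by median-of-ratios size factors (0.00673). Mpeg1, Csf1r, Lyz2, C1qa, C1qb and C1qc were lower, C1qc by -2.33 ± 0.25 (limma adjusted p = 0.000881) and C1qa by -1.57 ± 0.29 (limma adjusted p = 0.0059). C1qb was lower by -1.97 ± 0.62 (limma adjusted p = 0.0396), a call lost when estradiol 1 or any 1 of the 4 libraries with tamoxifen was left out (limma adjusted p 0.0562 to 0.174). Of the 20 other macrophage genes, 0 were higher and 17 were lower with tamoxifen, beside 12.3% and 36.2% of all tested genes. As 10 of them passed the filter only through estradiol, which fixes their direction here, this count is a description; without a filter 0 were higher and 19 lower of 32. The comparisons with vehicle share its single library, and those with estradiol share its 2.

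**Figure D4:**
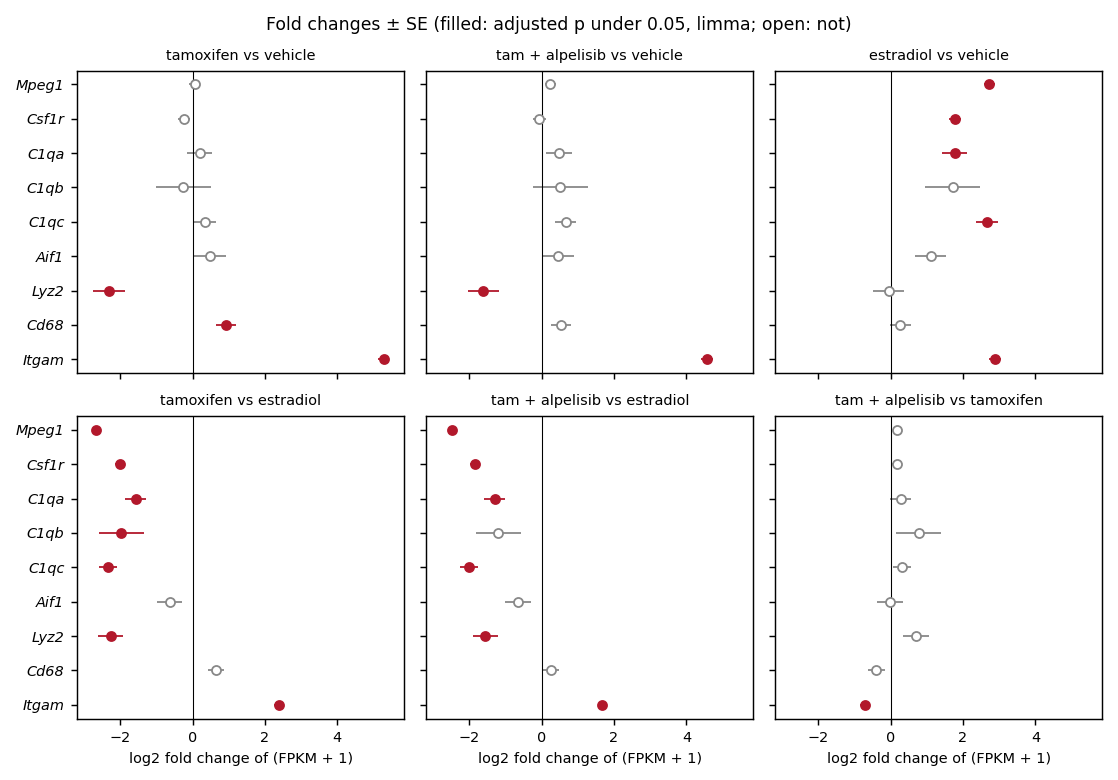
Log2 fold change of log2(FPKM + 1) ± SE of the 9 genes in the 6 comparisons, 1 panel each, with filled points for a limma adjusted p below 0.05. Itgam is filled in all 6 panels, and Mpeg1 and Csf1r in the panels that involve estradiol.

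Alpelisib added to tamoxifen asks what inhibition of the kinase changes. Of the 9 genes, 0 rose and 1 fell, against 6.93% and 4.81% of all tested genes (11.7% in all). The gene was Itgam, which averaged 32.4 ± 0.894 FPKM with tamoxifen plus alpelisib and 53.8 ± 3.23 FPKM with tamoxifen alone (SD, n = 2 each), a ratio of 0.602. It fell by 0.71 on the log2 scale (SE 0.13; limma adjusted p = 0.0238). The call was lost without any 1 of the 4 libraries compared, at -0.77 (adjusted p = 0.0786) and -0.65 (0.0837) without tamoxifen 1 and 2, and at -0.69 (0.215) and -0.74 (0.195) without tamoxifen plus alpelisib 1 and 2. None of the other 8 genes passed here; Lyz2 differed by 0.70 ± 0.35 (limma adjusted p = 0.249) and Mpeg1 by 0.18 (limma adjusted p = 0.383). Of the 20 tested other macrophage genes, 1 rose and 1 fell with alpelisib added, beside 6.93% and 4.81% of all tested genes. Laptm5 fell by 0.65 (limma adjusted p = 0.0474), a call lost without any 1 of the 4 libraries compared (adjusted p up to 0.296 over the alternatives). Cd14, a co-receptor for bacterial lipopolysaccharide, measured 102 and 104 FPKM with tamoxifen plus alpelisib, and 31.0 and 34.7 FPKM with tamoxifen. It rose by 1.62 ± 0.18 (limma adjusted p = 0.00591), a call lost without either tamoxifen plus alpelisib library, where the highest adjusted p was 0.0877. Ccl2 also rose, by 1.77 ± 0.20 (limma adjusted p = 0.00669), a call lost without tamoxifen plus alpelisib replicate 2 (0.0661).

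The combination against vehicle gave 1 of the 9 genes higher and 1 lower, against 13.1% and 21.8% of all tested genes (34.9% in all). Itgam rose, as given above, and Lyz2 fell by 1.61 on the log2 scale (SE 0.43; limma adjusted p = 0.0306), a call lost without tamoxifen replicate 1 (0.051) and without either tamoxifen plus alpelisib library (0.0766 and 0.123). Against estradiol, 1 was higher and 5 were lower, against 15.7% and 37.5% of all tested genes (53.2% in all). Mpeg1 and Csf1r passed the filter only through estradiol, and without a filter 1 was higher and 5 were lower as well. The 5 were Mpeg1, Csf1r, C1qc, C1qa and Lyz2, with C1qc lower by -2.01 ± 0.25 (limma adjusted p = 0.0012), C1qa by -1.29 ± 0.29 (limma adjusted p = 0.0103) and Lyz2 by -1.56 ± 0.35 (limma adjusted p = 0.0109). The C1qa call was lost without tamoxifen plus alpelisib replicate 1 (0.0627) and the Lyz2 call without replicate 2 (0.0678).

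The 9 genes together came to 65.8 and 65.7 FPKM with tamoxifen plus alpelisib, 79.1 and 94.3 FPKM with tamoxifen, 117 and 67.1 FPKM with estradiol, and 33.1 FPKM in vehicle, with overlapping groups. Over the 7 libraries, which share groups and depth, Mpeg1 and Csf1r correlated at r = 0.99 and Mpeg1 and C1qc at 0.97, while Itgam and Mpeg1 stood at -0.24, as descriptions. Among 8182 genes of at least 5 FPKM in a library, the mean of the 9 was most like Cmpk2 (r = 0.986), Yy1 (0.985), H2-K1 (0.983), Tex10 and Mycl (both 0.981), Atp13a2 and Dbf4 (both 0.978), Slc44a2 and Tmeff1 (both 0.977), and Ints9 (0.974). In likeness to a single gene, looked up after the values were seen, Itgam was most like Alpl, the tissue-nonspecific alkaline phosphatase (r = 0.999). Alpl had 33.9 and 33.4 FPKM with tamoxifen plus alpelisib, 45.3 and 50.6 FPKM with tamoxifen, 13.7 and 10.3 FPKM with estradiol, and 1.6 FPKM in vehicle. The genes most like Mpeg1 were Zcchc18 (r = 1.0), Fcrls and Egln2 (both 0.996), Btbd2 (0.995) and Fyb (0.994).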

How the data were processed

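Total RNA of the labelled epithelial endometrial cells was sequenced from TruSeq libraries, per the labels' protocols. The authors deposited FPKM values per gene, made with CASAVA, Bowtie and Cufflinks per the submitters' processing notes, with no versions. The only build there is the human hg19, while symbols are mouse symbols, so no position is taken from the files. The sources used here state no strand or multi-read settings. For these FPKM values, limma-trend (limma 3.58.1, R 4.3.3) was fitted to log2(FPKM + 1) of 12314 genes with at least 1 FPKM in at least 1 library, with 4 group means over 7 libraries, 3 residual and 3.274 prior degrees of freedom. Benjamini-Hochberg adjustment ran over all tested genes per comparison, at 0.05. The lone vehicle library is assumed to vary like the others. Labels number the mice of the other groups, but p-values measure only the spread between these libraries. Fragment numbers were estimated from FPKM steps and transcript lengths of GENCODE M21 and cover counting error only. Promoters come from RefSeq, with 7 of 9 symbols matched for use. The method was tested on simulated data. Python 3.11.15 with numpy 2.4.6 and pandas 2.3.3 made the summaries.

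The 9 genes and all lists were chosen with earlier results of these data known. Named besides the 9 are direct partners of them, up to 4 list genes of lowest p per comparison, and the 10 genes most like their mean; these rules were kept, with Itgam's and Mpeg1's own closest genes, Itgam's neighbours, Epcam, Krt8, Ltf, Csf3r, Cxcr2, Elane, Ly6g, S100a8 and S100a9 added after their values were seen. Not all of the genes the rules allow are given. Alternatives were a pseudocount of 0.1, no filter, median-of-ratios scaling, only the compared groups, each library left out, a replicate block and, chosen after the data were seen, quantile normalization. A result on 1 further listed gene is not reported here, and that gene was left out of its list's counts.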

Additional observations from a re-analysis of the deposited data

How the results depend on the processing

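Of the alternative values of single-gene log2 fold changes, 571 kept direction and side of the threshold, 25 lost the call, 13 gained it and 6 reversed. The reversals were small and none was of a call: C1qb with tamoxifen against vehicle was 0.24 without tamoxifen replicate 1 (-0.76 without replicate 2), Aif1 with alpelisib added 0.51 without tamoxifen plus alpelisib replicate 1 (-0.55 without replicate 2), Aif1 with the combination against vehicle -0.07 without its replicate 2, Lyz2 with estradiol against vehicle 0.49 without estradiol replicate 2 (-0.59 without replicate 1), and Csf1r with the combination against vehicle 0.01 under median-of-ratios and 0.09 under quantile normalization. Itgam kept its call in every alternative of the 5 comparisons other than alpelisib added to tamoxifen, and Mpeg1, Csf1r and C1qc kept theirs with estradiol against vehicle. Over all genes, the median fold change (log2) was 0.01 under median-of-ratios scaling and -0.26 without it for tamoxifen against estradiol, and 0.02 and -0.12 for tamoxifen against vehicle. This scaling also gave Cd68 a call with tamoxifen against estradiol (0.99; limma adjusted p = 0.00673). The Cd68 call with tamoxifen against vehicle was lost with no filter (0.0944) and with only the compared groups (0.0922). The C1qb call with tamoxifen against estradiol was lost with no filter (0.118), only the compared groups (0.0584) and quantile normalization (0.0589), and the Lyz2 call with the combination against vehicle with no filter (0.0875).

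The labels do not say that mouse numbers pair the groups. Deviations of same-numbered libraries correlated at -0.40 between tamoxifen and estradiol, -0.18 between the combination and estradiol, and 0.27 between the combination and tamoxifen. With so few libraries per group, these correlations cannot decide whether mice were paired. With the replicate block over 6 libraries, 0 of the 9 genes and 603 of all genes were called with alpelisib added to tamoxifen; Itgam had an adjusted p of 0.0751 there, and the block also ended the C1qb call with tamoxifen against estradiol (0.0584). It changed no other call of the 9 genes. No paired analysis was possible for comparisons with vehicle because its label has no mouse number. With no filter, 870 genes were called with alpelisib added and 1 of the 9 with the combination against vehicle. With only the compared groups, 1597 genes were called with estradiol against vehicle, and 6985 genes and 5 of the 9 with the combination against vehicle. Leaving out 1 library gave the following ranges, of all genes and of the 9: 3466 to 5538 and 2 to 3 with tamoxifen against vehicle, 14 to 1809 and 0 to 1 with alpelisib added, 2808 to 5063 and 5 to 6 with estradiol against vehicle, 4326 to 6090 and 6 to 7 with tamoxifen against estradiol, 1900 to 5096 and 1 to 2 with the combination against vehicle, and 3871 to 6614 and 5 to 7 with the combination against estradiol. The causes were not tested. Low levels of Mpeg1 and Csf1r outside estradiol limit their folds.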

Other observations

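Of 3 tested classical monocyte genes, 1 rose and 1 fell with tamoxifen against vehicle, beside 14.9% and 24.1% of all tested genes. Ly6c1 fell, at -1.08 (limma adjusted p = 0.0164), with 1.54 and 2.51 FPKM with tamoxifen and 5.32 FPKM in vehicle. Plac8, a small cysteine-rich protein also made by epithelia, measured 206 and 236 FPKM with tamoxifen plus alpelisib, 160 and 209 FPKM with tamoxifen, 183 and 113 FPKM with estradiol, and 10.3 FPKM in vehicle. All 6 treated libraries were above vehicle. Plac8 rose against vehicle with tamoxifen by 4.03 ± 0.33 on the log2 scale (limma adjusted p = 0.000397) and with estradiol by 3.68 ± 0.33 (limma adjusted p = 0.000923). Coro1a, an actin-binding protein of white blood cells, measured 0.586 and 0.358 FPKM with tamoxifen plus alpelisib, 0.0709 and 0.274 FPKM with tamoxifen, 4.32 and 5.95 FPKM with estradiol, and 1.17 FPKM in vehicle. Coro1a rose by 1.49 ± 0.23 with estradiol against vehicle (limma adjusted p = 0.00509). It was 1 of 3 that rose among 5 tested leukocyte genes, and 1 fell, beside 22.7% and 12.8% of all tested genes. The gene that fell was Arhgdib, by 1.16 (limma adjusted p = 0.0365), a call lost in 7 of 11 alternatives.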
